A study of Mus musculus with 9 samples.

Results

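The genes described here are 34 genes of mouse nucleotide synthesis: 10 of purine synthesis, 5 of pyrimidine synthesis, 4 of folate and thymidylate metabolism, 5 that supply deoxynucleotides, 9 that make ribose phosphate, and the nucleoside diphosphate kinase Nme1. They were listed by symbol from what their products do, and each was read from its probe set with the highest mean over all arrays. A probe set with a single gene symbol was found for 32 of the 34, and all 32 were among the 13278 genes tested of 18193 genes with a probe set. Impdh2 and G6pdx had no such probe set and were not analysed here. The cells were CD8 cytotoxic T lymphocytes (CTL) of P14 mice, which carry a transgenic T cell receptor for the peptide gp33-41 and are otherwise labelled wild type. Spleen cells were activated with that peptide and the cytokines IL-2 and IL-12 for 48 h and cultured for a further 96 h, and RNA was taken on day 6. In the last 48 h, 3 cultures received 20 nM rapamycin, 3 received 1 uM KU-0063794 and 3 received the solvent DMSO. Replicates 1, 2 and 3 of every group came from spleens 1, 2 and 3, with 1 spleen per replicate, and each culture was measured on 1 Affymetrix array. Age and sex of the mice are not stated in those labels.

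Dividing cells build nucleotides on phosphoribosyl pyrophosphate (PRPP), which is made from ribose 5-phosphate of the pentose phosphate pathway. Purine rings are assembled stepwise on PRPP, with carbon units carried by folate, whereas the pyrimidine ring is closed first and joined to PRPP afterwards. Ribonucleotide reductase and thymidylate synthase then turn a share of these ribonucleotides into the building blocks of DNA. The kinase mTOR works in 2 complexes. Rapamycin, bound to FKBP12, acts mainly on mTOR complex 1, and KU-0063794 blocks the kinase of both complexes. In other cell types mTOR complex 1 is known to raise nucleotide synthesis through phosphorylation of the Cad protein, through the transcription factor ATF4 and its target Mthfd2, and through sterol response element binding protein and the oxidative pentose phosphate genes. Which of these genes differed in transcript level in CTL under each inhibitor was the question addressed.

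All levels below are deposited log2 signals, and differences are log2 fold changes of the inhibitor over DMSO. A standard error (SE) from limma is given for some differences. A gene passed when its Benjamini-Hochberg adjusted p over all 13278 genes was below 0.05. Because the cultures of 1 replicate number share a spleen, each test was run without and with the spleen as a block. Both adjusted p-values are given for the nucleotide genes that passed, and for some other genes only 1 is. Signals were normalized between arrays before deposit, with array medians of 0.47 to 0.53, so a change in total RNA per cell would not be seen. In these bulk cultures, fewer cells of a type and less RNA per cell cannot be told apart. CD8 T cell markers were above the background level of 1.37 for 10 of 10 genes with a probe set, and their summed signal was 75.2 to 78.4 with rapamycin, 75.4 to 77.8 with KU-0063794 and 76.2 to 80.1 with DMSO. Above the background level were 1 of 6 B cell markers (Cd79b), 1 of 9 myeloid markers, and 0 of 3 CD4 T cell, 0 of 2 natural killer, 0 of 2 erythroid and 0 of 4 stromal markers. Without the block 0 of the 10 CD8 markers passed with either inhibitor. With the block 2 CD8 markers were higher and 2 lower with rapamycin, and 1 higher and 3 lower with KU-0063794. The shares of all genes with the block were 11.8% and 12.4%. The largest change among these markers was that of the perforin gene Prf1, which fell by 1.49 with rapamycin (adjusted p = 0.00393, and 0.334 without the block) and by 1.74 with KU-0063794 (adjusted p = 0.00226, and 0.244 without it). The myeloid marker Cd68, itself below the background level, fell by 0.50 with rapamycin (adjusted p = 0.0208, and 0.0158 with the block). Myeloid sums were 3.10 to 4.09 with rapamycin, 3.81 to 4.93 with KU-0063794 and 3.70 to 4.57 with DMSO. B cell sums were 2.31 to 4.43 with rapamycin, 3.21 to 4.32 with KU-0063794 and 3.59 to 4.73 with DMSO, and no list's marker was read as exactly 0. The actin control, whose 3' signal less its 5' signal reflects RNA or labelling quality, gave 0.62 to 0.72 with rapamycin, 0.65 to 0.70 with KU-0063794 and 0.49 to 0.65 with DMSO, and its part in the results was not tested.

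Changes among the 32 genes, each read from its 1 chosen probe set, were small, at most 1.35-fold with rapamycin and 1.45-fold with KU-0063794, and ran in both directions. With rapamycin, Paics rose and Rpia fell without the block, so that 2 of 32 passed, against 4.44% of all genes (2.65% higher and 1.79% lower). The block brought this to 4 higher (Paics, Adss, Prps1 and Prps2) and 3 lower (Rpia, Rpe and Mthfd1l), against 6.24% and 5.52% of all genes (11.8% together). With KU-0063794, Ppat and Paics rose without the block, 2 of 32 against 4.07% of all genes (2.28% higher and 1.78% lower). The block gave 12 higher (Ppat, Paics, Gart, Atic, Adss, Mthfd1, Cad, Ctps, Rrm1, Dut, Prps1 and Pgls) and 2 lower (Rpia and Rpe), against 6.52% and 5.86% of all genes (12.4% together). The genes tested included many below the background level, whereas 31 of the 32 nucleotide genes were above it. Every share of all genes given here counts those low genes. When only the 8044 genes above that level were tested without the block, 705 passed with rapamycin, among them 2 of 31 nucleotide genes. With KU-0063794, 673 of the 8044 passed, among them 4 of 31. At an unadjusted p below 0.05 without the block there were 13 of 32 with rapamycin and 21 with KU-0063794, against 17.9% and 18.5% of all genes. The median log2 fold change of the 32 genes was 0.16 with rapamycin and 0.26 with KU-0063794, while that of all genes was -0.0043 and 0.011. Values were above 0 for 23 and 25 of the 32 genes, against 48.7% and 53% of all genes. Higher values in all 3 spleens were found for 15 genes with rapamycin (19.7% of all genes) and 23 with KU-0063794 (22.1%), and lower values in all 3 for 8 (21.4%) and 6 (19.3%). The 3 inhibitor values and the 3 DMSO values did not overlap for 16 genes with rapamycin (19.1% of all genes) and 20 with KU-0063794 (20.2%). Both comparisons use the same 3 DMSO arrays. The DMSO array of spleen 1 was the lowest of the 3 for 25 of the 32 genes, against 38% of all genes. Without that array the medians were 0.10 with rapamycin and 0.18 with KU-0063794 without the block, and 0.12 and 0.22 with it. With the block 1 and 3 of the nucleotide genes passed in place of 7 and 14. Over all genes 686 and 658 passed in place of 1561 and 1644. Without the block and that array 0 nucleotide genes passed with either inhibitor in limma (7 with rapamycin and 13 with KU-0063794 at an unadjusted p below 0.05). Over all genes 197 and 138 then passed, in place of 590 and 540.

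**Figure D1:**
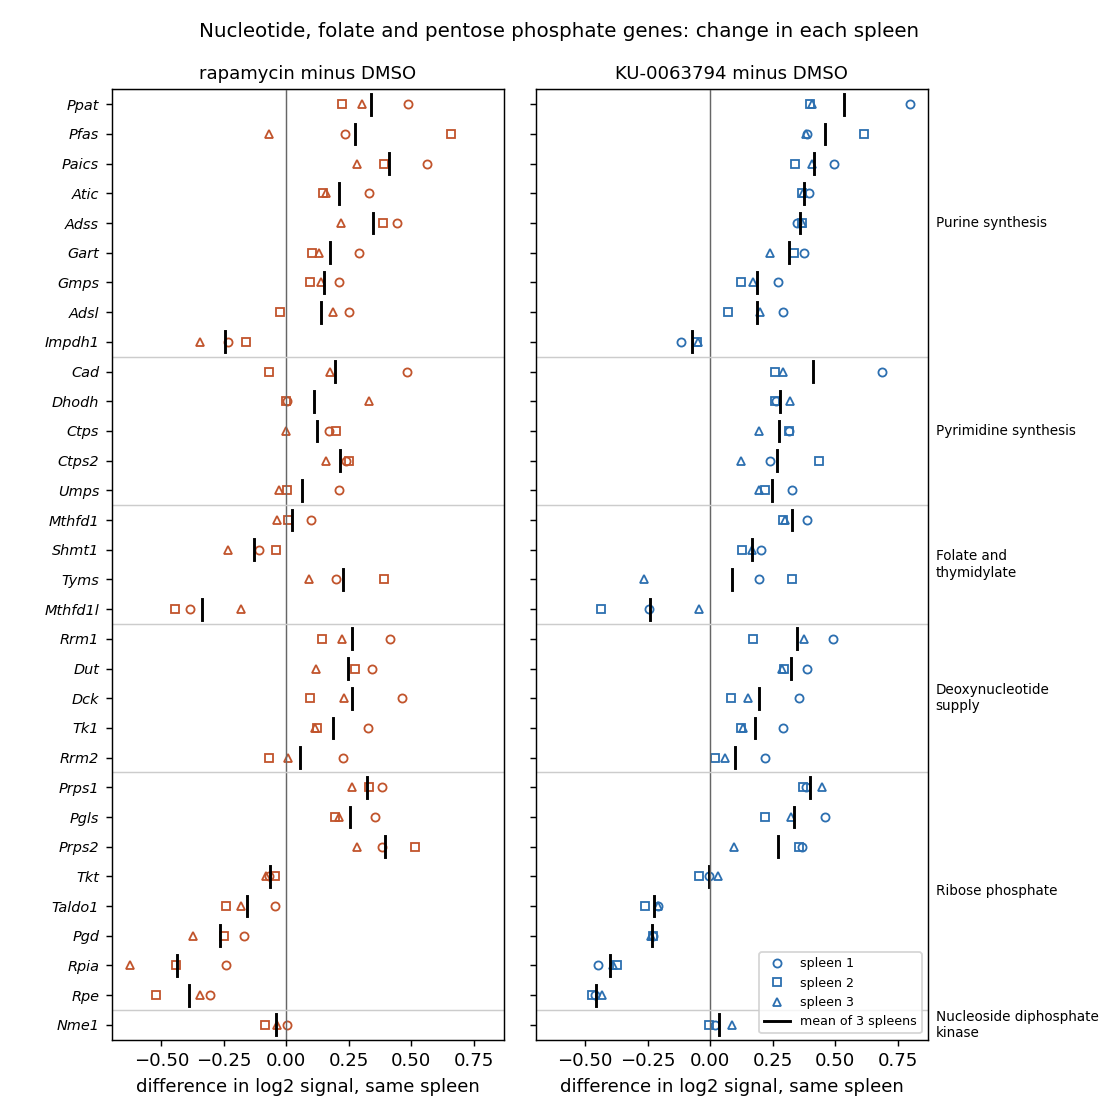
Log2 fold change of each of the 32 genes in each spleen, grouped by role, for rapamycin over DMSO and KU-0063794 over DMSO; points are single spleens and the short line is their mean. With KU-0063794, 8 of 9 purine, 5 of 5 pyrimidine and 5 of 5 deoxynucleotide genes lie to the right of 0 in all 3 spleens, and Rpia, Rpe, Pgd and Taldo1 lie to the left of 0 in all 3 with both inhibitors. Of all genes, 22.1% were higher in all 3 spleens with KU-0063794. Lower in all 3 were 21.4% with rapamycin and 19.3% with KU-0063794.

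Purine synthesis held the only genes of the 32 that rose past the threshold without the block, Ppat and Paics. Ppat, the amidotransferase that commits PRPP to the purine pathway, read 5.17, 5.10 and 5.09 in the rapamycin cultures of spleens 1 to 3, 5.48, 5.27 and 5.19 in the KU-0063794 cultures, and 4.68, 4.88 and 4.79 in the DMSO cultures. Its 6 inhibitor cultures were all above its 3 DMSO cultures. With KU-0063794 it averaged 5.32 ± 0.15, against 4.78 ± 0.10 in DMSO (SD, n = 3 each), and rose by 0.54 (SE 0.094, 1.45-fold, adjusted p = 0.0180, and 0.00998 with the block). The rapamycin difference of 0.34 did not pass (adjusted p = 0.0822, and 0.0537 with the block). A second Ppat probe set, with a mean signal of 3.45, differed by -0.073 with rapamycin and -0.0030 with KU-0063794, so the rise rests on 1 of the 2 Ppat probe sets above the background level, and the mean of all 3 probe sets gave 0.20 with KU-0063794 (adjusted p = 0.201).

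Paics, the enzyme of the carboxylase and SAICAR synthetase steps, read 7.76, 7.71 and 7.55 with rapamycin, 7.69, 7.66 and 7.68 with KU-0063794, and 7.20, 7.32 and 7.27 with DMSO. The 6 inhibitor values were all above the highest DMSO value. Paics rose by 0.41 with rapamycin (SE 0.079, 1.33-fold, adjusted p = 0.0225, and 0.0143 with the block). The rise with KU-0063794 was also 0.41 (SE 0.079, adjusted p = 0.0239, and 0.0137 with the block). Its other 2 probe sets differed by 0.40 and 0.41 with rapamycin and by 0.40 and 0.27 with KU-0063794, upward in all 3 spleens.

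Ppat and Paics are neighbours on chromosome 5 and are read in opposite directions. In RefSeq (GRCm38.p6) their start sites, 76951578 on the minus strand for Ppat and 76951302 on the plus strand for Paics, lie 276 bases apart and the annotated 5' ends overlap. Promoter windows, from 250 bases before to 50 after the start, were found for 32 of the 34 genes by symbol, as 38 windows; Pfas and Dhodh were not matched. They were searched on both strands for the E-box CACGTG, which reads alike on both strands and is bound by Myc among other factors, and for the E2F motifs TTTCCCGC, TTTGGCGC and TTTCGCGC. The ATF4 element TTGCATCA and the sterol response core TCACCCCAC were searched as well. CACGTG was present in 5 of 32 genes (15.6%; Atic, Paics, Impdh2, Tyms and Nme1), against 8.09% of 27025 genes with a window. An E2F motif was present in 2 of 32 (6.25%; Ppat and Prps2), against 2.12% of all genes. TTGCATCA and TCACCCCAC were in 0 of the 32, and in 1.03% and 0.614% of all genes. The 4 windows below belong to genes that rose and hold a match; they are written 5' to 3' along the gene's own strand, with the matched letters in capitals.
Ppat (chr5:76951529-76951828, minus strand): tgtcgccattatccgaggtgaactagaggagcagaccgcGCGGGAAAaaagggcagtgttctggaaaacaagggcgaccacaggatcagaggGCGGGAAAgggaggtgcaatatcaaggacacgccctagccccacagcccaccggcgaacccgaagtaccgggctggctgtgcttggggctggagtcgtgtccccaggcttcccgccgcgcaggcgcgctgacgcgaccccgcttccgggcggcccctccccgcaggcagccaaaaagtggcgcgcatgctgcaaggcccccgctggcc
Paics (chr5:76951052-76951351, plus strand): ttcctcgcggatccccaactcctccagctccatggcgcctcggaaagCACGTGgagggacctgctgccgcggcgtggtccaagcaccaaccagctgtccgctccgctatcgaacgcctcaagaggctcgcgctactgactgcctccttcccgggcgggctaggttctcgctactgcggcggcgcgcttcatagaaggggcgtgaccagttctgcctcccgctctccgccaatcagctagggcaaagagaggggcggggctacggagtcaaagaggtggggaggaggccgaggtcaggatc
Atic (chr1:71556906-71557205, plus strand): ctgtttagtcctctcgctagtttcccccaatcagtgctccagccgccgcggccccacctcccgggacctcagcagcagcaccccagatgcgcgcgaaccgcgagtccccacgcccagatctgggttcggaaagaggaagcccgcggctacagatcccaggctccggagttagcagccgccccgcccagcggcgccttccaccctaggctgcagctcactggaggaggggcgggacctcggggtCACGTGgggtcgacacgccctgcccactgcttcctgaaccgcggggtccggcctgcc
Prps2 (chrX:167382700-167382999, minus strand): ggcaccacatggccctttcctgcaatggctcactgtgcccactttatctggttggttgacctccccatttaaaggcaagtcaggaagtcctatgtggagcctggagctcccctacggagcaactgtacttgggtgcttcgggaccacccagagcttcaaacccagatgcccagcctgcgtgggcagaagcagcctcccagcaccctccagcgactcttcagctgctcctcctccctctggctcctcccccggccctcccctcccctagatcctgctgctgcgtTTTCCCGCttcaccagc
The Ppat window held TTTCCCGC in the opposite orientation with first bases at -211 and -158 from the start, and the Prps2 window held it in the gene's orientation at 34. CACGTG began at -203 in Paics and at -7 in Atic. None of these matches overlapped another. A match of letters is a description of the window and not a site bound in these cells.

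Among the later purine steps, Gart, Atic and Adss passed with KU-0063794 once the spleen was a block. Gart, which carries out 3 steps in 1 protein, read 5.31, 5.40 and 5.31 with rapamycin, 5.40, 5.63 and 5.42 with KU-0063794, and 5.02, 5.29 and 5.18 with DMSO. Gart rose by 0.32 with KU-0063794 with the block (SE 0.071, adjusted p = 0.0262, and 0.111 without it), and its rapamycin difference was 0.17 (adjusted p = 0.396, and 0.167 with the block). Each spleen's KU-0063794 culture was the highest of its 3 cultures, and the DMSO culture of spleen 2 was close to the rapamycin values. Atic, which closes the purine ring, read 5.68, 5.74 and 5.85 with rapamycin, 5.75, 5.96 and 6.06 with KU-0063794, and 5.35, 5.59 and 5.69 with DMSO. Its signals were lowest in the cultures of spleen 1 in every group, and within each spleen the order was KU-0063794, rapamycin, DMSO. The KU-0063794 rise of 0.38 was nearly the same in each spleen, at 0.40, 0.37 and 0.37, and passed with the block (adjusted p = 0.0133, and 0.108 without it). For rapamycin the difference was 0.21 (adjusted p = 0.380, and 0.0969 with the block). A second Atic probe set, with a mean signal of 3.31, differed by only 0.11 with KU-0063794, upward in 2 of 3 spleens, and the mean of both gave 0.25 without the block (adjusted p = 0.513).

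Adss, which turns IMP toward AMP, read 5.96, 6.19 and 5.96 with rapamycin, 5.87, 6.17 and 6.11 with KU-0063794, and 5.52, 5.81 and 5.74 with DMSO. All of its inhibitor values were above all DMSO values, and with the block it rose by 0.35 with rapamycin (adjusted p = 0.0221, and 0.142 without it) and by 0.36 with KU-0063794 (adjusted p = 0.0193, and 0.125 without it). The other purine genes did not pass in either fit. Pfas had the largest of their differences, 0.27 with rapamycin (adjusted p = 0.505, and 0.223 with the block) and 0.46 with KU-0063794 (adjusted p = 0.223, and 0.0535 with the block). Adsl and Gmps, which act on the way to AMP and GMP, had values of 0.14 and 0.15 with rapamycin and 0.19 each with KU-0063794. Impdh1, the IMP dehydrogenase isoform measured here, was the only one of the 9 measured purine genes with negative values, -0.25 with rapamycin (adjusted p = 0.249, and 0.0641 with the block) and -0.073 with KU-0063794. In all, 1 of the 9 purine genes passed with rapamycin and 2 with KU-0063794 without the block, and 2 and 5 with it, all of them higher, against 4.44% and 4.07% of all genes without the block and 11.8% and 12.4% with it, and the median differences were 0.21 and 0.36.

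**Figure D2:**
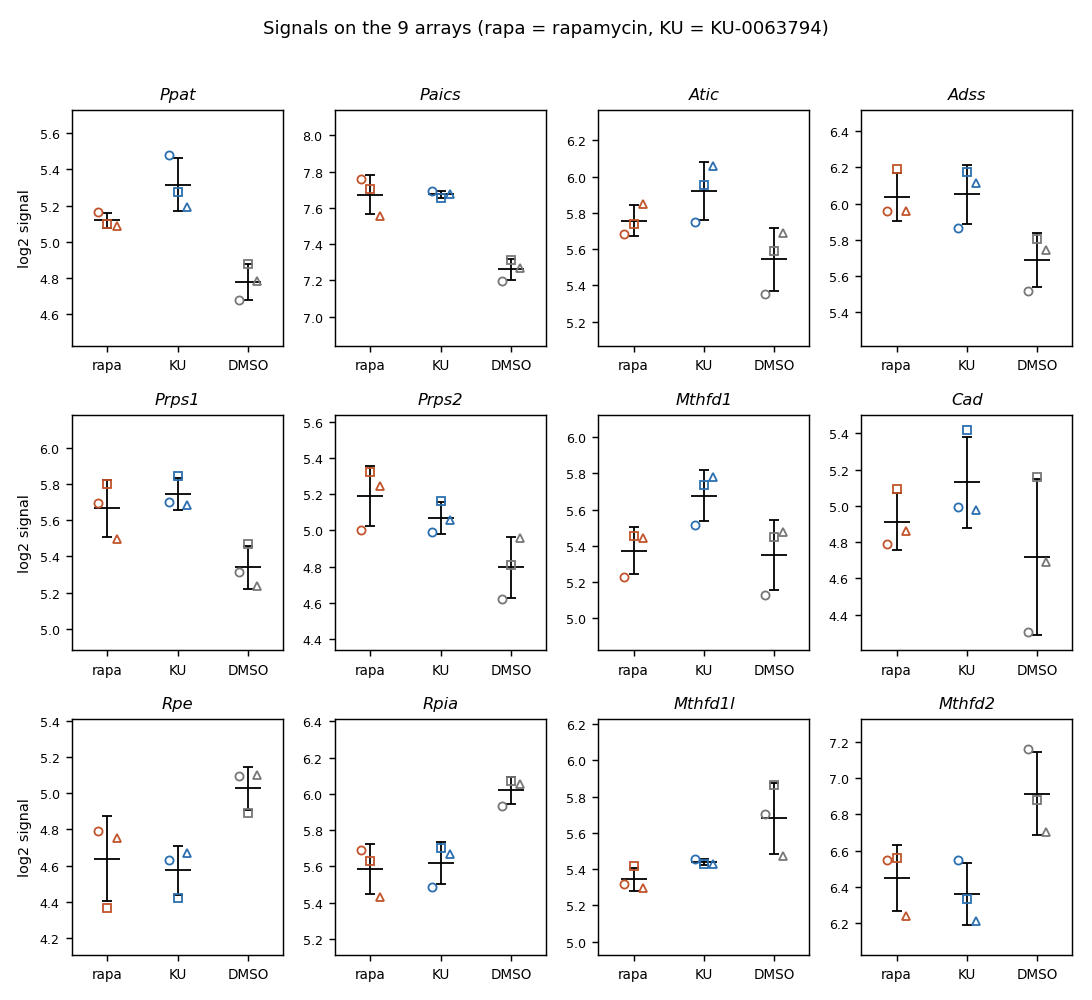
Log2 signal on each of the 9 arrays for 12 genes, with rapamycin, KU-0063794 and DMSO from left to right; points are single cultures, shaped by spleen, and bars are group means with their SD. Ppat, Paics, Adss and Prps1 have all inhibitor cultures above the DMSO cultures, whereas Rpia, Rpe, Mthfd1l and Mthfd2 have all of them below.

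The ribose phosphate genes differed in direction. Prps1 and Prps2, the synthetases that make PRPP, were higher, and Rpia and Rpe, which interconvert pentose phosphates, were lower. Prps1 read 5.70, 5.80 and 5.50 with rapamycin, 5.70, 5.84 and 5.68 with KU-0063794, and 5.32, 5.47 and 5.24 with DMSO. Every inhibitor culture was above every DMSO culture. Prps1 rose by 0.40 with KU-0063794 with the block (SE 0.068, 1.32-fold, adjusted p = 0.00947, and 0.0674 without it) and by 0.32 with rapamycin (adjusted p = 0.0215, and 0.126 without it). Prps2 read 5.01, 5.32 and 5.24 with rapamycin, 4.99, 5.16 and 5.06 with KU-0063794, and 4.62, 4.81 and 4.96 with DMSO. Its DMSO values were again all below the inhibitor values, by a narrow margin for KU-0063794. With the block Prps2 rose by 0.40 with rapamycin (adjusted p = 0.0190, and 0.0961 without it), and the KU-0063794 difference of 0.27 did not pass (adjusted p = 0.242, and 0.0649 with the block). A second Prps2 probe set, with a mean signal of 3.46, had the other order, at 0.013 with rapamycin and 0.30 with KU-0063794, and the mean of its 3 probe sets gave 0.19 with rapamycin (adjusted p = 0.286).

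Rpia and Rpe, which convert ribulose 5-phosphate to ribose 5-phosphate and to xylulose 5-phosphate, were lower in every inhibitor culture than in any DMSO culture. Rpia read 5.69, 5.63 and 5.43 with rapamycin, 5.49, 5.70 and 5.67 with KU-0063794, and 5.93, 6.07 and 6.06 with DMSO. It averaged 5.58 ± 0.14 with rapamycin, against 6.02 ± 0.08 in DMSO (SD, n = 3 each), and fell by 0.44 (SE 0.098, 1.35-fold, adjusted p = 0.0383, and 0.0242 with the block). With KU-0063794 Rpia fell by 0.40 with the block (adjusted p = 0.0324, and 0.0536 without it). Rpe read 4.79, 4.37 and 4.75 with rapamycin, 4.63, 4.42 and 4.67 with KU-0063794, and 5.09, 4.89 and 5.10 with DMSO. Spleen 2 gave the lowest Rpe signal in every group, and Rpe was lower in all 3 spleens with each inhibitor, by nearly the same amount in each with KU-0063794 and most in spleen 2 with rapamycin. With the block Rpe fell by 0.45 with KU-0063794 (SE 0.072, 1.37-fold, adjusted p = 0.00766, and 0.0898 without it) and by 0.39 with rapamycin (adjusted p = 0.0139, and 0.137 without it). Rpia had 1 probe set. The other 2 probe sets of Rpe, of which 1 lay below the background level, were higher in 0 of 3 spleens with either inhibitor. The one above it differed by -0.18 with rapamycin and -0.22 with KU-0063794, and the mean of all 3 probe sets by -0.24 and -0.29.

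Pgls, the lactonase of the oxidative branch, went the other way from Rpia and Rpe. It read 6.26, 6.33 and 6.43 with rapamycin, 6.37, 6.36 and 6.55 with KU-0063794, and 5.91, 6.14 and 6.22 with DMSO. The groups did not overlap, and Pgls rose by 0.33 with KU-0063794 with the block (adjusted p = 0.0231, and 0.111 without it), while the rapamycin value was 0.25 (adjusted p = 0.229, and 0.0624 with the block). Pgd, the dehydrogenase after Pgls, had values of -0.26 with rapamycin (adjusted p = 0.389, and 0.0503 with the block) and -0.23 with KU-0063794 (adjusted p = 0.453, and 0.0738 with the block), and all 4 of its probe sets were negative with both. The transaldolase Taldo1 had values of -0.16 and -0.23, and the transketolase Tkt of -0.065 and -0.0050, none of which passed. Of the 8 ribose phosphate genes, 1 fell with rapamycin and 0 passed with KU-0063794 without the block, against 4.44% and 4.07% of all genes. The block gave 2 higher and 2 lower with each inhibitor, against 11.8% and 12.4% of all genes. The median differences were -0.11 and -0.12.

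Pyrimidine genes were positive for all 5 with each inhibitor, against 48.7% of all genes with rapamycin and 53% with KU-0063794. None passed without the block, against 4.44% and 4.07% of all genes. With the block 0 passed with rapamycin and 2 with KU-0063794, against 11.8% and 12.4%. Cad, whose single protein carries the opening 3 steps, read 4.79, 5.09 and 4.86 with rapamycin, 4.99, 5.42 and 4.98 with KU-0063794, and 4.30, 5.16 and 4.69 with DMSO. Spleen 2 was highest in every group, and the DMSO values spread widely (SD 0.43), so the groups overlapped. Cad rose by 0.41 with KU-0063794 with the block (SE 0.11, adjusted p = 0.0485, and 0.332 without it), and its rapamycin difference was 0.20 (adjusted p = 0.693, and 0.315 with the block). The KU-0063794 difference of Cad was 0.69 in spleen 1 and 0.26 and 0.29 in the others. Its call was lost with the spleen as a random block (adjusted p = 0.144), and the difference was 0.21 without DMSO array 1, 0.63 without DMSO array 2 and 0.27 without KU-0063794 array 2. A second Cad probe set above the background level differed by 0.20 with KU-0063794 and -0.025 with rapamycin. Ctps, the CTP synthetase, read 5.49, 5.64 and 5.44 with rapamycin, 5.63, 5.75 and 5.64 with KU-0063794, and 5.31, 5.44 and 5.44 with DMSO. Only the KU-0063794 cultures lay wholly above DMSO, and Ctps rose by 0.28 with KU-0063794 with the block (adjusted p = 0.0405, and 0.110 without it), against a rapamycin value of 0.12 that did not pass. Umps, Dhodh and Ctps2, the last being the other CTP synthetase, had values of 0.25, 0.28 and 0.27 with KU-0063794 and 0.061, 0.11 and 0.22 with rapamycin. None of these 3 passed in either fit, with adjusted p-values for KU-0063794 of 0.0661, 0.0749 and 0.0670 with the block. A second Umps probe set, with a mean signal of 3.69, differed by 0.60 with KU-0063794 and 0.28 with rapamycin, upward in 3 and 2 spleens. The second Dhodh probe set, with a mean signal of 1.59, differed by only 0.031 with KU-0063794 and by -0.065 with rapamycin. The medians over the 5 genes were 0.12 with rapamycin and 0.28 with KU-0063794.

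Among the folate genes Mthfd1 rose with KU-0063794 and Mthfd1l fell with rapamycin, both with the block only. Mthfd1, the cytosolic enzyme that makes the folate forms used for purines and thymidylate, read 5.23, 5.45 and 5.44 with rapamycin, 5.52, 5.74 and 5.78 with KU-0063794, and 5.13, 5.45 and 5.48 with DMSO. The KU-0063794 cultures were above all 6 others, and the rapamycin and DMSO cultures were intermixed. With the block Mthfd1 rose by 0.33 with KU-0063794 (SE 0.065, adjusted p = 0.0181, and 0.185 without it), against 0.023 with rapamycin (adjusted p = 0.955, and 0.871 with the block). The Mthfd1 call was lost with the spleen as a random block (adjusted p = 0.0557), and the KU-0063794 difference was 0.21 without DMSO array 1. Its other 2 probe sets differed by 0.37 and 0.089 with KU-0063794. Mthfd1l, the mitochondrial synthetase that releases formate, read 5.32, 5.42 and 5.30 with rapamycin, 5.46, 5.43 and 5.43 with KU-0063794, and 5.70, 5.86 and 5.47 with DMSO. All inhibitor values were below all DMSO values, in spleen 3 only just. Mthfd1l fell by 0.34 with rapamycin with the block (adjusted p = 0.0432, and 0.105 without it), and its KU-0063794 value of -0.24 did not pass (adjusted p = 0.240, and 0.119 with the block). Shmt1, the cytosolic serine hydroxymethyltransferase, had values of -0.13 with rapamycin and 0.17 with KU-0063794 and did not pass. The probe set of Tyms, thymidylate synthase, had a mean of 0.54, below the background level, and gives no usable difference.

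Of 12 tested genes of the folate cycle and its carriers outside the 34, 0 passed without the block. With the block 0 rose and 1 fell with rapamycin, and 2 rose and 1 fell with KU-0063794, against 11.8% and 12.4% of all genes. The differences of the 12 ran from -0.53 to 0.34 with rapamycin and from -0.55 to 0.45 with KU-0063794, and 5 and 7 of them were above 0. Only the mitochondrial genes Mthfd2 and Shmt2 of that list are given here, and they do not stand for the others. The 2 genes that rose with KU-0063794 are not among them. Mthfd2, the dehydrogenase and cyclohydrolase that acts before Mthfd1l, read 6.55, 6.56 and 6.24 with rapamycin, 6.55, 6.33 and 6.21 with KU-0063794, and 7.16, 6.88 and 6.70 with DMSO. All 6 inhibitor values were below the DMSO values, and with the block Mthfd2 fell by 0.47 with rapamycin (adjusted p = 0.00965, and 0.111 without it) and by 0.55 with KU-0063794 (adjusted p = 0.00547, and 0.0683 without it). Shmt2, the mitochondrial counterpart of Shmt1, had values of -0.16 and -0.076 that did not pass. Atf4, the transcription factor known for inducing Mthfd2, fell by 0.70 with rapamycin (adjusted p = 0.0122, and 0.00189 with the block) and by 0.55 with KU-0063794 (adjusted p = 0.0259, and 0.00270 with the block). A link between the Atf4 and Mthfd2 differences was not tested.

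All 5 deoxynucleotide genes had positive differences with each inhibitor, against 48.7% of all genes with rapamycin and 53% with KU-0063794. None passed without the block, against 4.44% and 4.07% of all genes. With the block 0 passed with rapamycin and 2 with KU-0063794, against 11.8% and 12.4%. Rrm1, the large subunit of ribonucleotide reductase, read 6.99, 7.05 and 7.0 with rapamycin, 7.06, 7.08 and 7.15 with KU-0063794, and 6.57, 6.90 and 6.78 with DMSO. The inhibitor cultures were all above DMSO, most widely in spleen 1. Rrm1 rose by 0.35 with KU-0063794 with the block (adjusted p = 0.0322, and 0.0765 without it), and the rapamycin value was 0.26 (adjusted p = 0.169, and 0.0839 with the block). A second Rrm1 probe set above the background level differed by 0.40 with rapamycin and 0.29 with KU-0063794. Dut, the dUTPase that keeps uracil out of DNA, read 7.51, 7.64 and 7.37 with rapamycin, 7.55, 7.66 and 7.54 with KU-0063794, and 7.17, 7.36 and 7.25 with DMSO. All inhibitor values were above all DMSO values, with the smallest gap between the rapamycin culture of spleen 3 and the DMSO culture of spleen 2. Dut rose by 0.32 with KU-0063794 with the block (adjusted p = 0.0249, and 0.0948 without it), and the rapamycin value was 0.25 (adjusted p = 0.199, and 0.0661 with the block). The small reductase subunit Rrm2 had values of only 0.054 and 0.099. The salvage kinases had values of 0.26 and 0.20 for Dck and 0.19 and 0.18 for Tk1, with all 3 cultures of each inhibitor above DMSO for both kinases and no pass in either fit. Nme1, which phosphorylates nucleoside diphosphates, had values of -0.040 and 0.034 and groups that overlapped.

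Genes of the DNA replication machinery, which use these products, were also mostly higher. Of 30 listed and tested, 11 rose with rapamycin and 12 with KU-0063794 without the block, 15 and 22 rose with it, and 0 fell in any of the 4 tests. Of all genes, 2.65% and 2.28% rose without the block and 6.24% and 6.52% with it. Whether the replication calls depend on the DMSO array of spleen 1 was not tested. Their median differences were 0.36 and 0.42, above the medians of 0.16 and 0.26 for the 32 nucleotide genes, with no test of that difference. Pold1, the catalytic subunit of polymerase delta, rose by 0.82 with rapamycin (adjusted p = 0.00977) and by 0.80 with KU-0063794 (adjusted p = 0.0114). Mcm7, of the replicative helicase, rose by 0.62 (adjusted p = 0.0148) and 0.64 (adjusted p = 0.0169).

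The other genes of these pathways differed in both directions. Of 82 listed, 74 had a probe set and 64 were tested, with medians of -0.015 with rapamycin and 0.024 with KU-0063794 over all of them. List medians with rapamycin and KU-0063794 were 0.20 and 0.19 for 7 regulators, -0.15 and -0.037 for 5 genes of deoxynucleotide control, and -0.084 and 0.063 for 12 of the folate cycle and its carriers. Without the block 1 rose and 2 fell with rapamycin, and 3 rose and 1 fell with KU-0063794, against 4.44% and 4.07% of all genes. The block gave 5 higher and 5 lower with rapamycin, and 9 higher and 4 lower with KU-0063794, against 11.8% and 12.4% of all genes. Nudt1, which removes oxidised purine nucleotides, rose by 0.39 with rapamycin (adjusted p = 0.0466) and by 0.48 with KU-0063794 (adjusted p = 0.0234). Dctd, which deaminates dCMP toward thymidylate, rose by 0.99 with KU-0063794 (adjusted p = 0.0209), with signals of 1.89, 2.42 and 2.13 with KU-0063794 against 1.31, 1.09 and 1.07 with DMSO. Those DMSO signals were all below the background level, so the size of that difference is uncertain. Ak4, a mitochondrial adenylate kinase isoform, fell by 1.13 with rapamycin (adjusted p = 0.0458), and its KU-0063794 difference of -0.71 passed with the block (adjusted p = 0.0173). Purine salvage had 0 of 9 genes past the threshold in limma without the block with either inhibitor. With the block Aprt, the adenine salvage enzyme, fell by 0.41 with rapamycin (adjusted p = 0.0129), and Hprt, which salvages hypoxanthine and guanine, had values of 0.091 and 0.067 that did not pass. Among listed regulators, E2f2 rose by 0.47 with KU-0063794 (adjusted p = 0.0318). Myc rose with the block by 0.48 with rapamycin (adjusted p = 0.00881, and 0.0598 without it) and by 0.39 with KU-0063794 (adjusted p = 0.0175, and 0.115 without it).

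**Figure D3:**
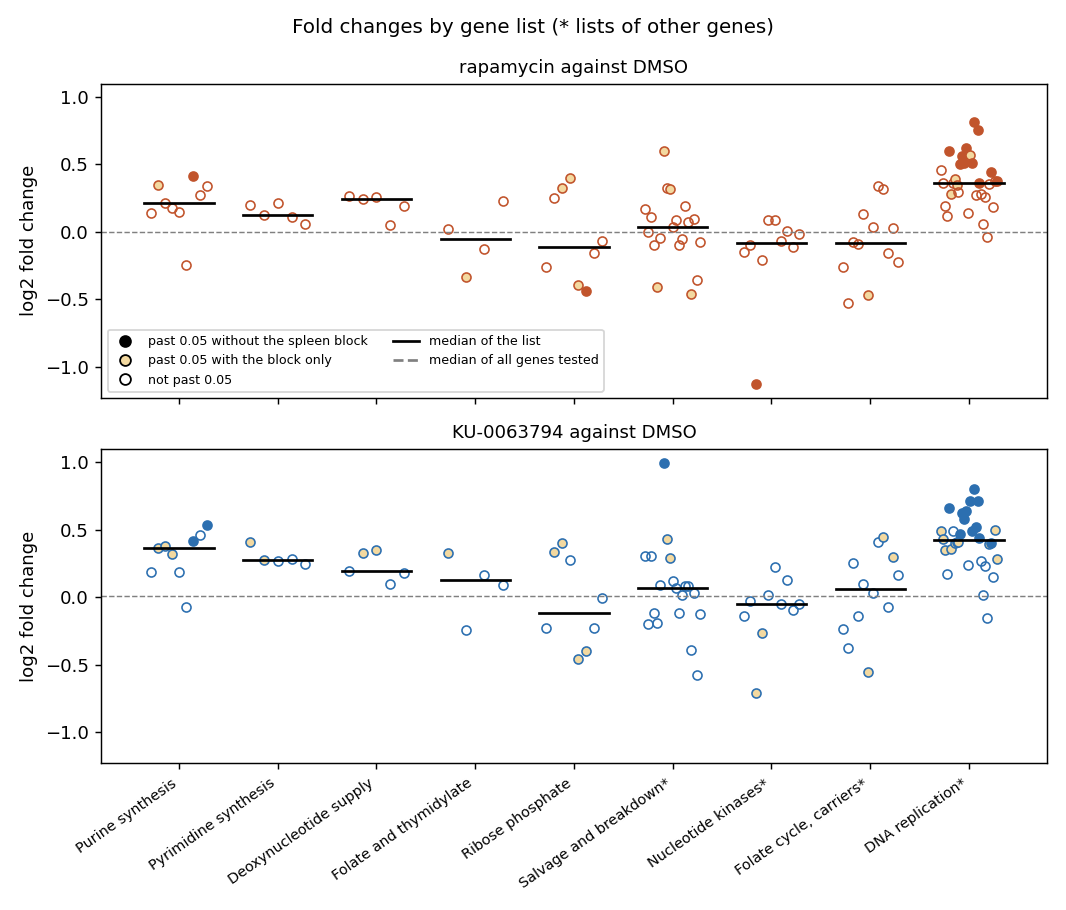
Log2 fold change of every tested gene by list, for rapamycin over DMSO and KU-0063794 over DMSO; filled points passed without the spleen block, pale points with it only, the solid line marks each list's median and the dashed line that of all genes. Purine and DNA replication genes are centred above 0, at medians of 0.21 and 0.36 with rapamycin and 0.36 and 0.42 with KU-0063794, and the ribose phosphate genes spread to both sides.

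KU-0063794 and rapamycin were compared directly at 1 dose each, 1 uM and 20 nM, which are not matched doses. None of the 32 genes passed, and 0% of all genes did, in limma without or with the block. At an unadjusted p below 0.05 without the block there were 2 of 32 (Mthfd1 and Shmt1), against 4.74% of all genes. The median difference was 0.076, against 0.011 for all genes, and 26 of 32 were above 0, against 53.8%. These values varied with the probe set chosen. With the mean of all probe sets 21 of 31 were above 0, with a median of 0.062. With the probe set of largest variance 22 of 32 were, with a median of 0.048. The value was higher in all 3 spleens for 17 genes and lower in all 3 for 3, against 16.3% and 13.3% of all genes, and groups did not overlap for 7, against 8.16%. The largest was that of Mthfd1, at 0.30 with a 95% interval of 0.031 to 0.57 (adjusted p = 0.933, and 0.328 with the block). Shmt1 read 5.10, 5.30 and 5.11 with KU-0063794 and 4.78, 5.13 and 4.71 with rapamycin, a difference of 0.29 with an interval of 0.0067 to 0.58 (adjusted p = 0.933, and 0.336 with the block). For Ppat the difference was 0.20, with an interval of -0.013 to 0.41, and for Paics 0.0027, with an interval of -0.18 to 0.18. Rpia had 0.035 (interval -0.18 to 0.25) and Rpe -0.064 (interval -0.35 to 0.22). Over the 32 genes the intervals reached from -0.45 to 0.68. With the block 5 genes passed against DMSO with both inhibitors (Paics, Adss, Prps1, Rpia and Rpe), 2 with rapamycin alone and 9 with KU-0063794 alone, against 8.28%, 3.47% and 4.1% of all genes, and these comparisons share the DMSO arrays. A gene that passed with 1 inhibitor and not the other was not shown to differ between them.

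**Figure D4:**
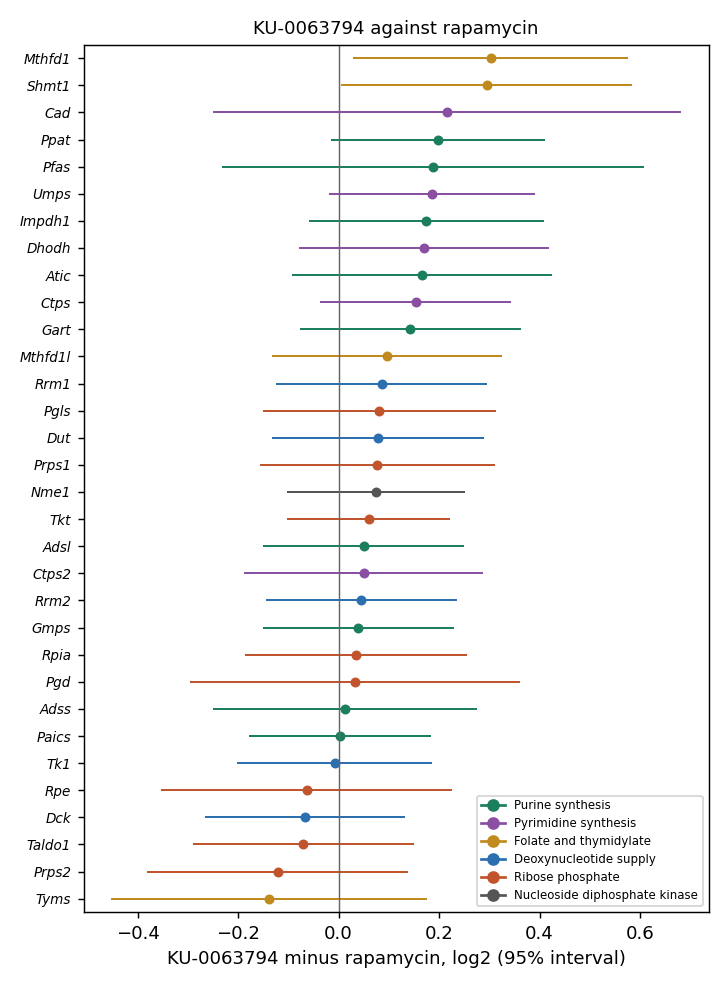
Log2 difference of KU-0063794 over rapamycin for the 32 genes with 95% intervals from the fit without the block. Points lie between -0.14 and 0.30, and only the intervals of Mthfd1 and Shmt1 leave out 0.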

How the data were processed

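RNA of 9 cultures was measured on Affymetrix arrays. The authors deposited a log2 signal for each probe set and array, made with Affymetrix Expression Console 1.3.1 per the submitters' processing notes; which background correction, summarisation and normalization it applied is not given in the sources used here. They were used as deposited. Of 45101 probe sets, 34945 carried 1 gene symbol and were used, 932 carried several, 9160 were not listed in the annotation, and 64 were controls. Each gene was read from its probe set with the highest mean over the 9 arrays and tested if this exceeded the 40th percentile of probe sets (0.31 log2), which can leave out low genes; all 32 nucleotide genes with a probe set passed it. The background level, 1.37 log2, is the 95th percentile of 36 tissue-restricted genes.

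Groups were compared with limma 3.58.1 (R 4.3.3, lmFit and eBayes, two-sided moderated tests over all 9 arrays) and Benjamini-Hochberg adjustment over 13278 genes, at a threshold of 0.05. The procedure was tested on simulated data in which the added changes were larger than any of those of the nucleotide genes. That test does not show recovery at the sizes reported here. Replicate numbers pair the arrays, since the design states that control and treated cultures came from the same spleens; deviations from group means correlated at r 0.345 to 0.533 in 9 pairs of the same number and at -0.414 to -0.0791 in 18 pairs of different numbers. A fit with spleen as a fixed block therefore stands beside the one without it. The number of arrays limits the precision. The genes, lists and tests were chosen with earlier results of these data known. Nucleotide genes past the threshold in either fit are given on all arrays, and the others by their differences. Promoter windows came from RefSeq (GRCm38.p6). Alternatives covered the block, the arrays fitted, scaling, filter, choice of probe set, moderation, array weights, and each array or spleen left out.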

Additional observations from a re-analysis of the deposited data

Results flagged for a closer look

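Shmt1 stood out because its differences against DMSO had opposite signs with the inhibitors in all 3 spleens. It was higher with KU-0063794, at 5.17 ± 0.11, than with rapamycin, at 4.87 ± 0.23 (SD, n = 3 each), and DMSO lay between them at 5.0 ± 0.15. The difference between the inhibitors was 0.29 and did not pass in limma (adjusted p = 0.933, and 0.336 with the spleen block). Opposite signs in all 3 spleens were seen in 1 of 4 Shmt1 probe sets; the other 3 differed by -0.12, 0.0083 and 0.16 with rapamycin and by 0.044, 0.21 and 0.33 with KU-0063794, upward with KU-0063794 in 2 or 3 of 3 spleens.

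Signal above the background level was also found for 2 probe sets that carry more than 1 gene symbol and enter no comparison. The probe set shared by Prps1 and Prps1l3 had a mean log2 signal of 4.07 over the 9 arrays, and group means of 4.30 with rapamycin, 4.12 with KU-0063794 and 3.79 with DMSO. Its inhibitor values were above DMSO in all 3 spleens, by 0.51 with rapamycin and 0.33 with KU-0063794 on average, the same direction as the Prps1 probe set used. The probe set shared by Tyms and Tyms-ps had a mean of 6.01, and group means of 6.14 with rapamycin, 6.09 with KU-0063794 and 5.81 with DMSO. It was higher in all 3 spleens with each inhibitor, by 0.33 and 0.29, whereas the single-gene Tyms probe set lay below the background level. These 2 probe sets were not tested, and which of the genes each reads cannot be told apart.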

How the results depend on the processing

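All 21 gene and inhibitor pairs past the threshold in either fit kept their sign in the 24 alternative settings. These pairs were chosen for passing in the same data, and many settings leave the fold change itself unchanged. Kept signs were therefore largely fixed in advance and lend the directions no support. The number of the 32 genes past the threshold with rapamycin against DMSO was 2, and it was 7 with the spleen as a fixed block and 8 with it as a random block, 1 with the probe set of largest variance, and 0 when only those 2 groups were fitted (13 at an unadjusted p below 0.05). With KU-0063794 against DMSO it was 2, and it was 14 with the fixed block, 12 with the random block, 6 with a trend in the moderation, 4 with a filter at the background level, 4 with array weights, and 0 when only those 2 groups were fitted (17 at an unadjusted p below 0.05). Over all genes, fitting only 2 groups gave 98 with rapamycin and 111 with KU-0063794, in place of 590 and 540. The random block gave 1245 and 1291. KU-0063794 against rapamycin stayed at 0 under every setting run, with at most 7 at an unadjusted p below 0.05 when an array or spleen was left out. Leaving out 1 array or 1 spleen gave 0 to 2 genes with rapamycin and 0 to 3 with KU-0063794 without the block, and 0 to 7 and 0 to 15 with it. Without the block, 0 passed with rapamycin when DMSO array 1 or rapamycin array 1 or 2 was left out, and 0 with KU-0063794 when DMSO array 1 or KU-0063794 array 1 or 2 was left out (7 to 17 at an unadjusted p below 0.05). Over all genes 197, 227 and 326 passed in those rapamycin fits, and 138, 126 and 129 in those KU-0063794 fits. With the block none of the 32 genes passed without any 1 of the spleens (11 to 16 with rapamycin and 19 to 23 with KU-0063794 at an unadjusted p below 0.05), where fewer arrays remained. Over all genes 6, 425 and 18 passed with rapamycin without spleen 1, 2 or 3, and 88, 485 and 120 with KU-0063794. For rapamycin with the block 1, 1 and 4 passed without DMSO array 1, 2 or 3, and 2, 0 and 3 without rapamycin array 1, 2 or 3. For KU-0063794 with the block 3, 9 and 6 passed without DMSO array 1, 2 or 3, and 3, 5 and 2 without KU-0063794 array 1, 2 or 3. Over all genes 592 to 1100 passed in those rapamycin fits, in place of 1561. In those KU-0063794 fits 632 to 1226 did, in place of 1644. Ppat and Rpe with KU-0063794 kept their calls with the block in 9 of 9 left-out arrays, and Prps1 in 8 of 9. With the random block Cad and Mthfd1 did not pass with KU-0063794. The causes of these shifts were not tested. A probe's signal near the background level, as for Tyms and Dctd, limits what its difference shows.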
